A study of Rattus norvegicus with 93 samples.

Results

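Otx2, En1, En2, Pax5, Pax7, Irx2, Lmx1b and Foxa2 encode 8 transcription factors that mark position along the embryonic midbrain and hindbrain, and their transcripts were measured here in outbred rats, in the rostromedial tegmental nucleus (RMTg). The 8 genes were chosen by name, with earlier results of these data known. All 8 have a row among the 38354 genes of the deposited table. The RMTg is a small group of inhibitory neurons behind the ventral tegmental area that projects to midbrain dopamine neurons. The labels put every sample in 1 group and name no treatment, genotype, sex, age or behaviour, so no comparison between groups of animals was possible. Polyadenylated RNA was sequenced, with 1 library per sample, for 92 libraries. The age of the rats is not in the labels, and the word outbred is all they say of the animals.

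The boundary between midbrain and hindbrain is set in the embryo by opposing transcription factors. OTX2 specifies forebrain and midbrain in front of it, and the engrailed proteins EN1 and EN2, with PAX5, mark the territory on both sides of it. FOXA2 specifies the ventral midline, LMX1B acts there in the precursors of dopamine and serotonin neurons, PAX7 marks the dorsal midbrain, and IRX2 is an Iroquois homeodomain factor of the hindbrain. In the adult midbrain, EN1, EN2, FOXA2 and LMX1B are kept in dopamine neurons, OTX2 is kept in a subset of ventral tegmental dopamine neurons, and LMX1B is also kept in serotonin neurons of the raphe.

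Libraries differed in quality, and the values below come from 49 of them unless stated. In these 49 libraries Nif3l1 took under 20% of the counts and LOC120093067 together with Zfp532 took under 10%, and library totals ran from 9.55 to 50.2 M estimated counts (M, 1000000) with a median of 19.2 M. In 32 libraries the latter pair took over 10%, and in 11 libraries Nif3l1 took over 20%. The 11 genes listed for RMTg inhibitory neurons were each above 0 in all 49 and summed to between 867 and 1309 counts per 1000000 (CPM). Their medians ran from 3.96 CPM (Oprm1) to 453 CPM (Gad1), so Gad1 weighed most in the sum. Dopaminergic markers summed to between 315 and 2080 CPM over 10 genes and serotonergic markers to between 157 and 526 CPM over 5 genes. Markers of choroid plexus and cerebellum were mixed. Folr1 was at 0 in 42 libraries, Clic6 in 32 and the granule cell gene Gabra6 in 36, while Kcnj13 (median 3.42 CPM), Prlr (2.75 CPM) and Kl (1.68 CPM) of the choroid plexus list and Car8 (8.82 CPM) of the cerebellar list were above 0 in every library. None of 4 noradrenergic markers passed the filter on low values, and the transmitter enzyme Dbh among them was at 0 in 41 libraries.

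In the RefSeq annotation of the rat genome build GRCr8, Otx2 lies on chr15:24422876-24432709, En1 on chr13:34303684-34309269 (plus strand), En2 on chr4:7954953-7960793 (minus strand) and Pax5 on chr5:63554784-63741380. Pax7 lies on chr5:157279623-157381188, Irx2 on chr1:32489512-32494930, Lmx1b on chr3:37257025-37338675 and Foxa2 on chr3:155923305-155927508, all 4 on the minus strand. The build behind the deposited table is not given in the sources used here, but the position it lists for each of the 8 genes equals an end of that gene in GRCr8. RefSeq's promoter entries covered 6 of the 8 genes. Shown here are the 250 bases before the start in each entry, for the 3 of those 6 whose level rose with dopaminergic markers (below). These 3 differ widely in composition. They are En1 on chr13:34303434-34303683 (plus strand), Lmx1b on chr3:37338558-37338807 (minus strand) and Foxa2 on chr3:155927509-155927758 (minus strand). The En1 and Foxa2 windows border the gene spans given above. The Lmx1b window lies partly inside its gene span, because its promoter entry has a start within the gene. Each is written 5′ to 3′ on the gene's strand, and capitals mark the 1 motif match.
En1: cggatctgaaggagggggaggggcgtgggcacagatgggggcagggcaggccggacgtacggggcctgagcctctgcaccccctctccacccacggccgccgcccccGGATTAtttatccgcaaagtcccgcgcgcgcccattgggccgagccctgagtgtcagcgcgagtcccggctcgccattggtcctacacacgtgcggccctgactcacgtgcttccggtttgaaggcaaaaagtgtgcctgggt
Lmx1b: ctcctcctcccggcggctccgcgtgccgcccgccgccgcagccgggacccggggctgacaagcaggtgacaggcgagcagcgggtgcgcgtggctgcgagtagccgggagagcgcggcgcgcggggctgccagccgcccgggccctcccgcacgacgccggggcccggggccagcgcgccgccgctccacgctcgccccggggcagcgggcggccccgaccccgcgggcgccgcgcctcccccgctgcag
Foxa2: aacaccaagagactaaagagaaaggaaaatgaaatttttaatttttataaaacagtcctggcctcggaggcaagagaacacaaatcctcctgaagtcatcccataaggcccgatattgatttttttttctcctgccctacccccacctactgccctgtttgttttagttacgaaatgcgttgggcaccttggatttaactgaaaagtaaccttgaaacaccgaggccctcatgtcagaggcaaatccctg

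The Lmx1b window was 84.4% G or C with 44 CG steps, and the Foxa2 window was 42.8% G or C with 5, against medians of 52% and 6 over all 27457 promoters of this length. The En1 window lay between them, at 67.6% and 23. Of 3 motifs searched on both strands, the OTX motif TAATCC occurred once, in the En1 window as its other-strand form GGATTA (in capitals above). That motif occurred in 6.326% of all promoters. The FOXA motif TGTTTAC (3.249% of all promoters) and the homeodomain motif TAATTA (4.939%) occurred in none of the 6 windows. A match is a description of these letters, not a binding site.

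Each gene was measured at its own level in nearly every library. Levels are given as CPM, which is not adjusted for transcript length, so the genes are not ranked against each other. In tissue pieces, fewer cells of a type and less RNA per cell cannot be told apart.

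Otx2, the factor of forebrain and midbrain, ran from 0 to 5.59 CPM with a median of 0.94, and its mean was 1.15 ± 1.05 CPM (SD, n = 49). Its median estimated count was 18, and 3 libraries had none. In those 3 libraries a count of 0 allows a level of up to 0.289 CPM (3 counts of the total, counting error only). A single library stood above the rest, and the other 48 lay between 0 and 4.09 CPM. Foxa2, the factor of the ventral midline, ran from 0.09 to 4.68 CPM with a median of 1.26, and its mean was 1.24 ± 0.79 CPM (SD, n = 49). The same library was highest for both genes, and for Foxa2 it stood 0.63 above the next library on the log2(CPM + 1) scale.

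Lmx1b ran from 0.30 to 4.10 CPM with a median of 1.74, and its mean was 1.91 ± 0.80 CPM (SD, n = 49). En1 ran from 50.7 to 119.9 CPM with a median of 67.7, and its mean was 70.4 ± 13.2 CPM (SD, n = 49). En2, the paralog of En1, ran from 10.8 to 27.2 CPM with a median of 16.4, and its mean was 16.9 ± 2.93 CPM (SD, n = 49). Both engrailed genes were detected in every library, and 2 libraries of En1 lay apart above the other 47.

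Pax5, the boundary factor, ran from 7.10 to 19.8 CPM with a median of 12.99, and its mean was 13.2 ± 3.14 CPM (SD, n = 49). Pax7, the dorsal factor, ran from 2.13 to 7.09 CPM with a median of 3.76, and its mean was 3.98 ± 1.20 CPM (SD, n = 49). Irx2 ran from 5.83 to 18.2 CPM with a median of 8.75, and its mean was 9.42 ± 2.56 CPM (SD, n = 49). These 3 genes were above 0 in every library, with 2 libraries of Irx2 apart at the top. Estimated counts of Otx2, En2, Pax7 and Lmx1b were whole numbers within 0.01 in all 49 libraries, while those of Pax5, which has 6 transcripts in RefSeq, were whole in 55.1%.

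**Figure D1:**
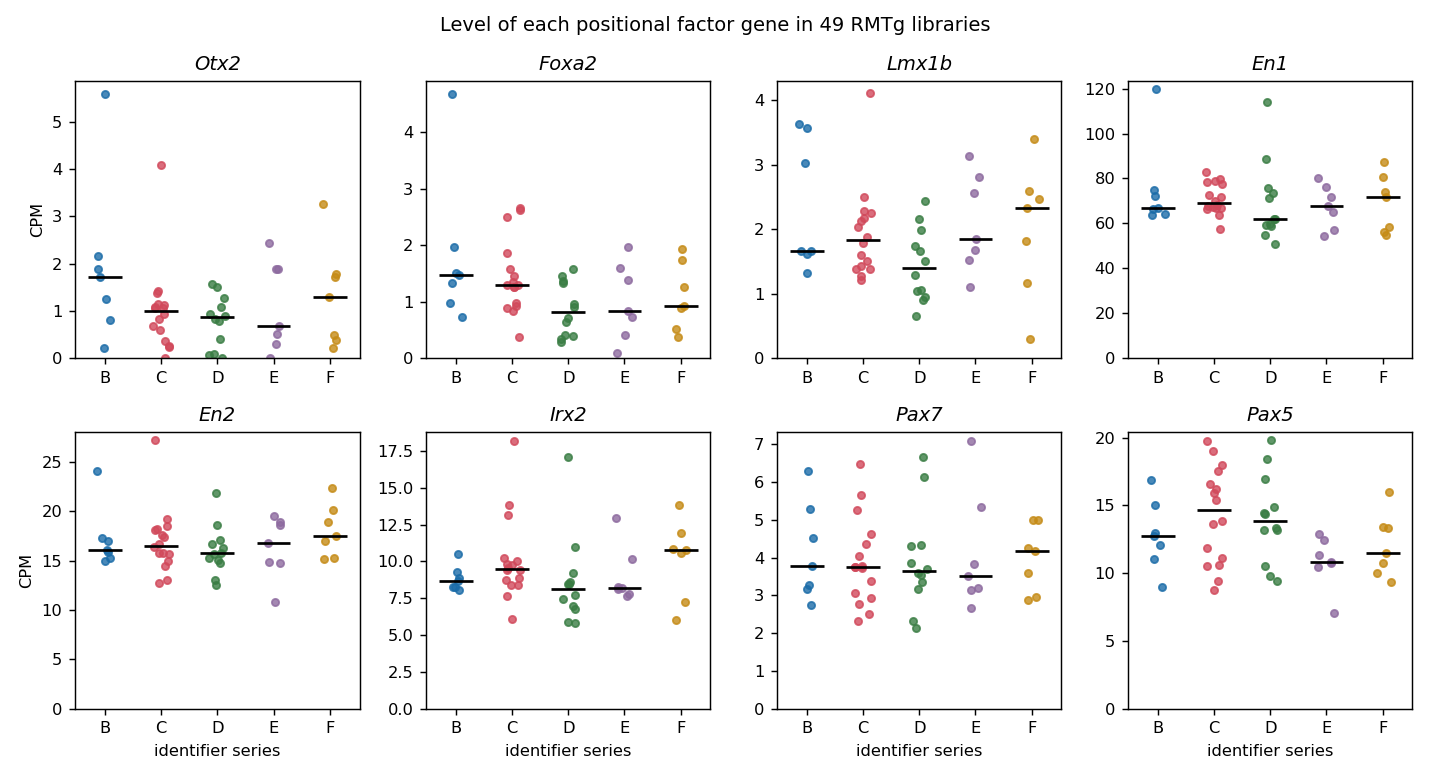
Level of each of the 8 genes in CPM (vertical axes) in the 49 libraries, 1 point per library, split by identifier series (horizontal axes), with the median of each series as a bar. The series overlap for every gene, and Otx2, Foxa2 and En1 share their highest library, in series B.

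The genes differed in how much they varied between libraries. Compared with genes of a similar mean level, the SD of log2(CPM + 1) of Otx2 stood at the 97.0 percentile of all 18749 genes past the filter on low values. The percentile was 89.3 for Foxa2, 71.8 for Lmx1b, 68.2 for Pax5, 58.4 for Irx2, 56.9 for En1, 43.8 for Pax7 and 24.4 for En2. Counting error made up 6.14% of the variance of Otx2 and between 2.82% (En1) and 17.1% (Pax7) of that of any of the 8. Counting error was thus the smaller part of the variance for each gene.

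Sample identifiers fall into number series, called B to F here, with 7, 16, 12, 7 and 7 of the 49 libraries. The labels do not say what a series stands for. The median of Otx2 ran from 0.67 CPM (series E) to 1.71 CPM (series B) and that of Foxa2 from 0.81 CPM (series D) to 1.47 CPM (series B). None of the 8 genes differed between the series in limma's moderated F test, against 1.71% of all genes at a Benjamini-Hochberg adjusted p under 0.05. The lowest adjusted p was 0.31, for Foxa2 (unadjusted p = 0.042, the 1 gene of the 8 under 0.05).

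Dopamine neurons lie in front of the RMTg, and their markers were used as the first contrast between libraries. A dopaminergic score was the mean of the standardised levels of 10 markers (Th, Slc6a3, Ddc, Nr4a2, Pitx3, Aldh1a1, Drd2, Ret, Kcnj6 and Sncg), none of them among the 8 genes. Th, the rate-limiting enzyme of dopamine synthesis, ran from 46.5 to 1067 CPM with a median of 195.6. Of the 8 genes, 4 rose with this score: Otx2, Foxa2, Lmx1b and En1. In the same fit 3% of all genes rose, and 6.43% passed in either direction. The median slope of the 8 genes was 0.11 log2 units per SD of the score, and that of all genes was -0.0012. With the levels of Xist and Ddx3y as covariates, 178 of all genes rose and 34 fell, in place of 563 and 642. Otx2, Foxa2 and Lmx1b still passed there. Sex is not in the labels, and its part in these slopes was not tested.

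Otx2 had the largest slope of the 8 genes, 0.42 ± 0.06 log2 units per SD (SE, adjusted p = 1.6e-06 in limma). Its 3 highest libraries, at 5.59, 4.09 and 3.26 CPM, stood at ranks 1, 6 and 3 of the score. Of its 3 libraries at 0, 2 stood near the bottom, at ranks 43 and 46, and the third stood at rank 14. Foxa2 had a slope of 0.33 ± 0.05 (SE, adjusted p = 5.5e-07). Its 3 lowest libraries, at 0.09, 0.29 and 0.35 CPM, stood at ranks 44, 46 and 48 of 49.

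Lmx1b had a slope of 0.26 ± 0.04 (SE, adjusted p = 0.00011). Its lowest library, at 0.30 CPM, was also the lowest in the score, and its highest, at 4.10 CPM, stood at rank 4. En1 had a slope of 0.12 ± 0.03 (SE, adjusted p = 0.012). For En1 the order was looser: its second highest library, at 114 CPM, stood at rank 39. Without the library of highest score, in which Otx2, Foxa2 and En1 all peaked, the slope of En1 was 0.08 (adjusted p = 0.083), while Otx2 (0.35), Foxa2 (0.27) and Lmx1b (0.24) still passed.

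The slope of En2 was 0.09 ± 0.03 (SE, adjusted p = 0.055). It passed with median-of-ratios scaling (0.12, adjusted p = 0.019) and with the 2 libraries of most extreme score left out (0.10, adjusted p = 0.035). The slopes of Pax7 (0.05 ± 0.05), Irx2 (0.04 ± 0.05) and Pax5 (-0.06 ± 0.05, all SE) did not pass, with adjusted p of 0.51, 0.59 and 0.40. The boundary, dorsal and Iroquois factors thus had no slope that could be told from 0 at this spread.

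**Figure D2:**
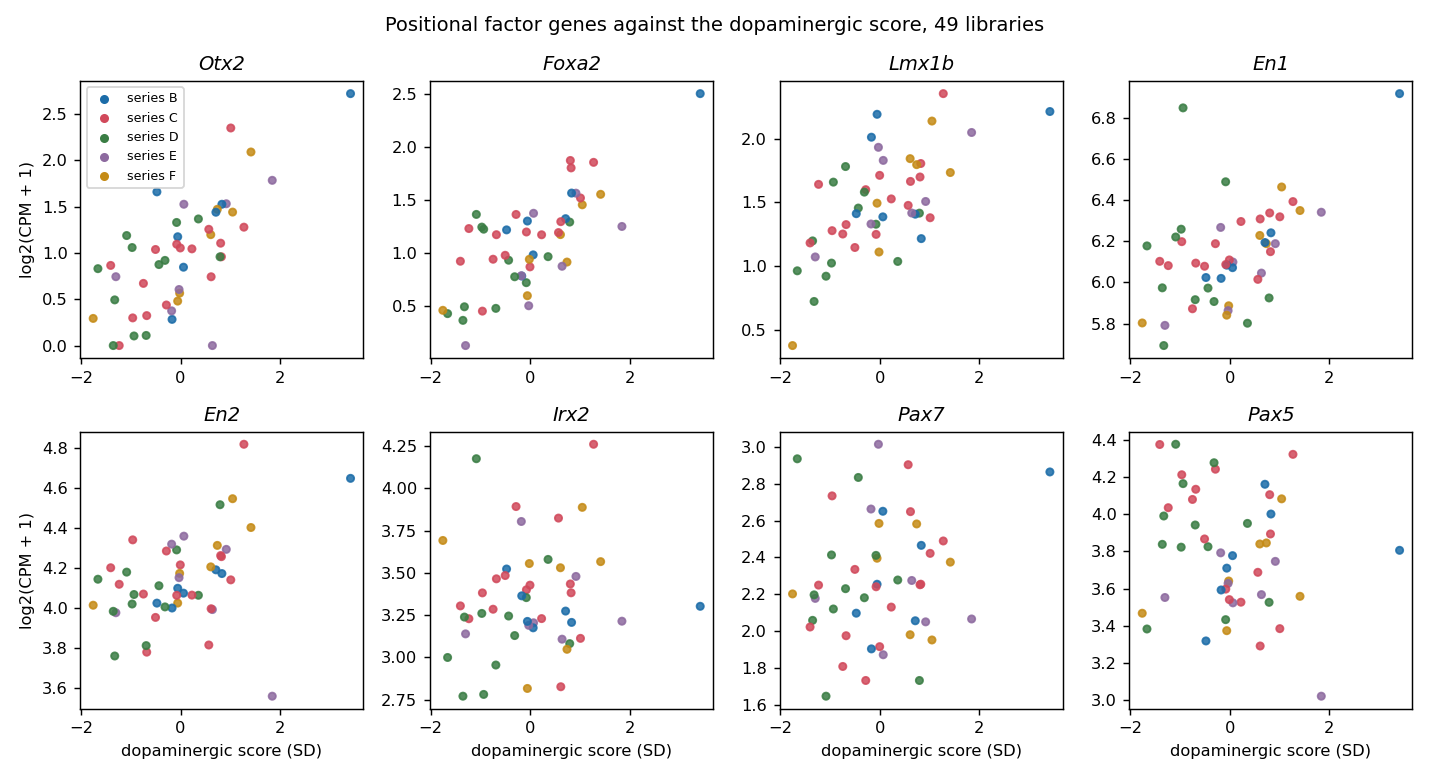
Level of each gene as log2(CPM + 1) (vertical axes) against the dopaminergic score in SD (horizontal axes), 1 point per library, coloured by identifier series. Otx2, Foxa2 and Lmx1b climb across the whole range of the score, and 1 library of series B lies far to the right of the others.

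As a correlation with the score, Foxa2 had r = 0.73 (Spearman's rho 0.67), Otx2 r = 0.70 (rho 0.66) and Lmx1b r = 0.65 (rho 0.60). Each had an adjusted permutation p of 0.00015 for r and 0.00019 for rho, based on the smallest p that 100000 permutations can give and adjusted over 76 relations. With the 2 libraries of most extreme score left out, r was 0.67, 0.60 and 0.59. Within the 5 series r ran from 0.42 to 0.93 for Foxa2, from 0.48 to 0.88 for Otx2 and from 0.36 to 0.92 for Lmx1b. En1 had r = 0.51 (rho 0.47, adjusted permutation p = 0.0028 and 0.0074), which was 0.33 without them and -0.17 within series D. En2 had r = 0.42 (rho 0.43, adjusted permutation p = 0.022 and 0.016), which was -0.44 within series E. So Foxa2, Otx2 and Lmx1b were positive in every series, and the engrailed genes each had 1 series of opposite sign.

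The slopes themselves were compared for all 28 pairs of genes, and 17 differed (permutation test, adjusted over the 28 pairs). Otx2 rose more steeply than En1 by 0.30 ± 0.07 log2 units per SD (SE, adjusted p = 0.00017), and more steeply than En2, Pax5, Pax7 and Irx2. Foxa2 and Lmx1b each rose more steeply than En1, En2, Pax5, Pax7 and Irx2. En1 and En2 had higher slopes than Pax5, by 0.18 ± 0.05 and 0.16 ± 0.04. Otx2 and Foxa2 differed by 0.09, with a 95% interval from -0.04 to 0.23, and Otx2 and Lmx1b by 0.17, from -0.01 to 0.34. The slopes of En1 and En2 differed by 0.03, with an interval from -0.04 to 0.10. The 8 genes thus fell into a steep set of 3 (Otx2, Foxa2 and Lmx1b) and a shallow or flat set of 5, with no pair within the steep set told apart.

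Further positional factors were read from a list of 41 genes, of which 19 passed the filter. With the dopaminergic score 4 rose and 1 fell, and the median slope was -0.01. Foxa1, the paralog of Foxa2, rose by 0.54 ± 0.05 log2 units per SD (SE, adjusted p = 4.2e-12). Lmx1a, the paralog of Lmx1b, rose by 0.38 ± 0.05 (SE, adjusted p = 1.7e-08), and Otx1, the paralog of Otx2, by 0.23 ± 0.05 (SE, adjusted p = 0.0041). Pax8, the paralog of Pax5, rose by 0.27 ± 0.05 (SE, adjusted p = 0.00010), while Pax5 did not pass. Irx5 fell by 0.12 (adjusted p = 0.043), a call lost under 7 of the alternative settings.

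**Figure D3:**
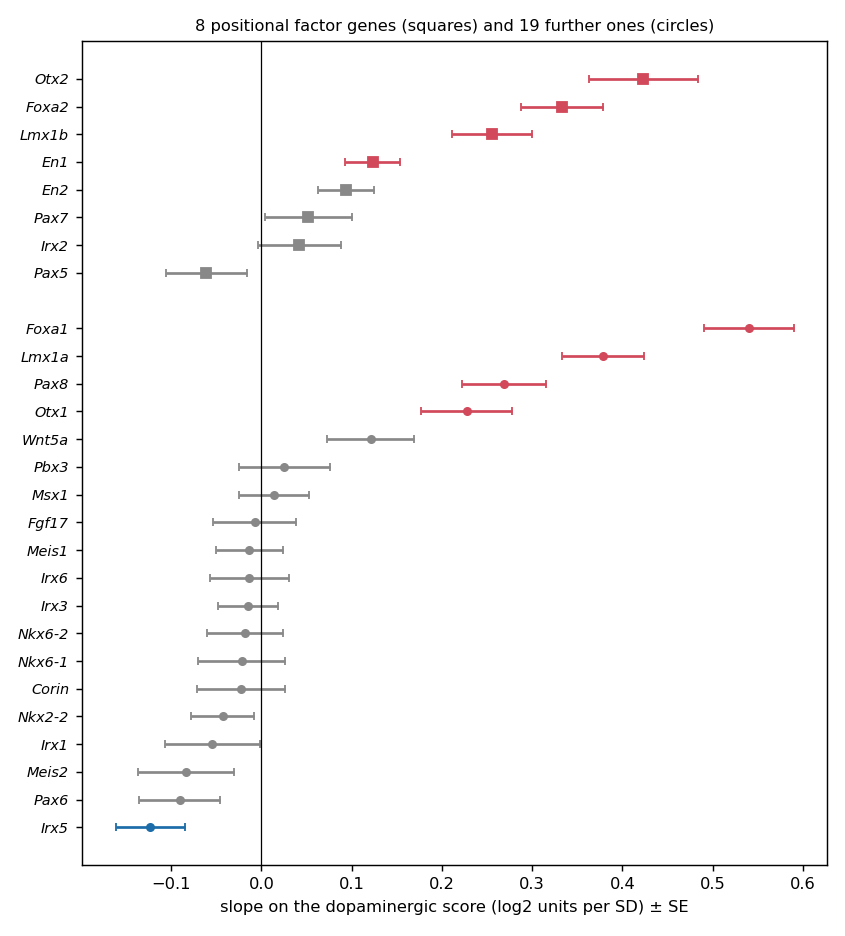
Slope on the dopaminergic score in log2 units per SD (horizontal axis, bars are SE) for the 8 genes (squares) and the 19 further positional factors past the filter (circles), with genes at an adjusted p under 0.05 in red (rose) or blue (fell) and the others in grey. Foxa1 has the highest slope shown, and the 3 steep genes of the 8 are Otx2, Foxa2 and Lmx1b.

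All 11 Hox genes listed, which pattern the hindbrain behind its first segment, failed the filter, and Hoxc4 was at 0 in all 49 libraries. The highest Hox level in any library was 0.961 CPM, for Hoxa2. Of 3 signals of the embryonic boundary, Fgf8 was at 0 in 48 libraries and Wnt1 in 45, while Fgf17 ran from 0.26 to 3.06 CPM with a median of 1.42 and was at 0 in none. Gbx2, the hindbrain opponent of Otx2, was at 0 in 40. Of the other Iroquois genes, Irx3, Irx5, Irx6 and Irx1 passed the filter, with medians of 15.7, 5.92, 5.50 and 2.76 CPM, and Irx4 (median 0.16 CPM, at 0 in 7 libraries) did not.

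Markers of other cells moved with the dopaminergic score as well. The interpeduncular nucleus is a midline midbrain nucleus next to the ventral tegmental area, and 3 nicotinic receptor genes were listed for it. Chrna5 (0.59 ± 0.08, SE) and Chrna3 (0.43 ± 0.05, SE) rose. Chrnb4 did not pass (0.06 ± 0.05, SE, adjusted p = 0.45 in limma). The summed level of these 3 ran from 2.92 to 52.02 CPM. This list was taken without Pax7 and Irx2, which are among the 8 genes and did not pass with the score. Neurod6, listed for forebrain neurons, rose by 0.34 ± 0.07 (SE), and Emx1 on the same list was at 0 in 31 libraries. Slc10a4 of the cholinergic list rose by 0.41 ± 0.04 (SE), the astrocyte gene Gfap by 0.27 ± 0.06, the microglial gene Tmem119 by 0.15 ± 0.04 and Car8 of the cerebellar list by 0.13 ± 0.04, each the 1 gene of its list that passed. None of the oligodendrocyte, endothelial, ependymal, choroid plexus, serotonergic or RMTg inhibitory markers past the filter passed the test. The part of any of these markers in the slopes of the 8 genes was not tested.

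No gene of the 8 passed with the serotonergic or the RMTg inhibitory score. With the serotonergic score 0.016% of all genes passed in limma, and 1715 genes had an unadjusted p under 0.05. Lmx1b, which serotonin neurons need, had a slope of 0.13 ± 0.05 (SE, unadjusted p = 0.021, adjusted p = 0.51). With the RMTg inhibitory score 0.0427% of all genes passed, and 1781 had an unadjusted p under 0.05. The lowest unadjusted p there was 0.067, for Foxa2 (slope -0.12 ± 0.06, SE). Both fits thus called few genes of the whole table.

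With the oligodendrocyte score 19.4% of all genes passed and 6.78% of all genes fell, and En1 was the 1 gene of the 8 that fell. En1 fell by 0.09 log2 units per SD (SE 0.03, adjusted p = 0.034 in limma). With median-of-ratios scaling 630 genes rose and 640 fell, in place of 2374 and 1270. The call of En1 was lost with that scaling (adjusted p = 0.19), without a filter on low values (0.060) and without the library of highest dopaminergic score (0.075). Within series the correlation had both signs, from -0.79 in series D to 0.52 in series E.

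The 8 genes were also compared with each other. A pair was called where each gene passed in the fit across all genes on the other's level, and 2 of 28 pairs were called, Otx2 with Foxa2 and En1 with Foxa2. With median-of-ratios scaling 8 pairs were called: these 2, Lmx1b and En2 each with Foxa2, En1 with En2 and with Lmx1b, and Irx2 with En2 and with Pax5. Otx2 and Foxa2 rose together, with adjusted p of 0.00022 and 0.00028 in limma for the 2 directions, r = 0.64 and rho = 0.62 (adjusted permutation p = 0.00015 and 0.00019). The correlation was 0.54 with the 2 libraries most extreme in Otx2 left out and ran from 0.39 to 0.94 within series. In the fit on Foxa2 0.373% of all genes passed, and in the fit on Otx2 0.832%.

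En1 and Foxa2 rose together, with adjusted p of 0.00049 and 0.0016 in limma, r = 0.64 and rho = 0.60 (adjusted permutation p = 0.00015 and 0.00046). In the fit on En1 0.251% of all genes passed. The correlation was 0.60 with the 2 libraries most extreme in En1 left out and ran from 0.38 to 0.95 within series. With the 2 libraries most extreme in Foxa2 left out, En1 no longer passed on Foxa2 (adjusted p = 0.11).

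By the permutation test of r alone, 8 further pairs had an adjusted p under 0.05, all among Otx2, Foxa2, Lmx1b, En1, En2 and, with En2 only, Irx2. Their r ran from 0.36 (Otx2 and En2) to 0.50 (Lmx1b and Foxa2). En1 and En2 had r = 0.45 and rho = 0.51 (adjusted permutation p = 0.011 and 0.0029), which was 0.44 with the 2 libraries most extreme in En1 left out and ran from -0.13 to 0.99 within series. Pax7 had r between -0.21 and 0.11 with the other 7 genes. Pax5 had r between -0.21 and 0.34 with the other 7, highest with Irx2 (adjusted permutation p = 0.068). With the log10 library total no gene of the 8 had an r beyond -0.05 to 0.19.

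**Figure D4:**
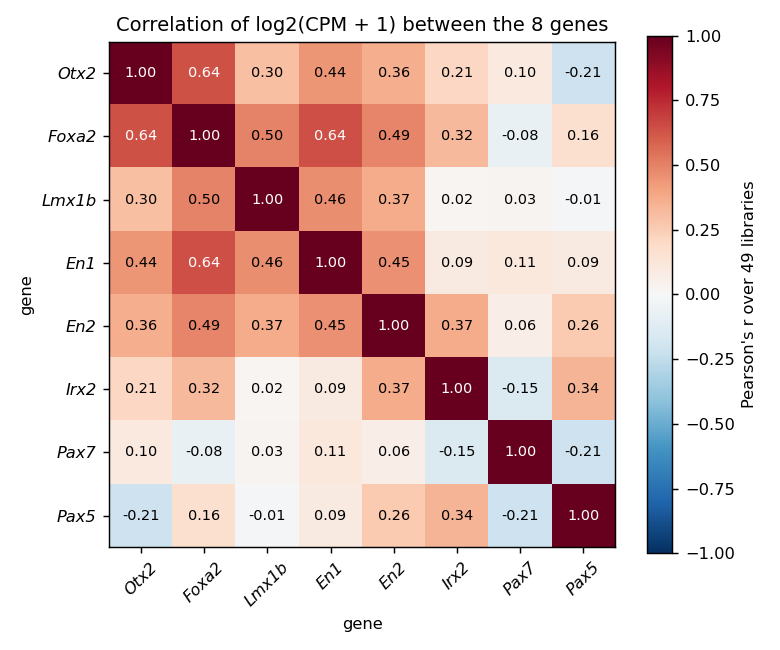
Pearson's r of log2(CPM + 1) between each pair of the 8 genes over 49 libraries (both axes list the genes, and colour and number give r). The block of Otx2, Foxa2, Lmx1b, En1 and En2 is positive throughout, from 0.30 to 0.64, and Pax7 is near 0 with each of them.

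Dopaminergic markers were read gene by gene in the fits on each of the 8 levels. With Otx2 8 of the 10 markers rose, among them the dopamine transporter Slc6a3 (slope 0.70, adjusted p = 7.0e-05) and Th (0.65, adjusted p = 7.8e-06). With Foxa2 7 of 10 rose, Th at 0.71 (adjusted p = 4.2e-08) and the nuclear receptor gene Nr4a2 at 0.45 (adjusted p = 2.5e-07). With Lmx1b 5 of 10 rose, with En1 3, with En2 2 and with Irx2 1. With Pax5 none rose and Slc6a3 fell by 0.37 (adjusted p = 0.041, and 0.052 with median-of-ratios scaling), and with Pax7 none passed. That call of Slc6a3 was also lost with identifier series as a covariate (adjusted p = 0.14 in limma). It was lost too with the 2 libraries most extreme in Pax5 left out (0.19). Of all genes, 0.832% passed with Otx2, 0.373% with Foxa2, 0.16% with Lmx1b, 0.251% with En1 and 0.32% with En2. With Irx2 8.84% passed and with Pax5 28%, so their single calls are not read as results about these markers. Slopes are log2 units per SD of the level of the gene named.

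The nearest genes below were picked among named genes with r above 0 in every series. On that rule the gene most like Otx2 over the 49 libraries was Chrna3, a nicotinic receptor subunit (r = 0.78, adjusted p = 1.1e-07). It was followed by Fam167a (0.76), the neuropeptide gene Cck (0.75), the GDNF receptor Ret (0.74) and Wnt2 (0.72). Foxa2 was most like Cck (r = 0.82, adjusted p = 2.4e-10), Foxa1 (0.79), the vesicular transporter-like gene Slc10a4 (0.78), Th (0.76) and Nr4a2 (0.75). Lmx1b was most like Gch1 (r = 0.66, adjusted p = 0.00060), which makes the cofactor of tyrosine and tryptophan hydroxylase, then Zar1 (0.66), Nrgn (0.65), Foxa1 (0.64) and the vesicular monoamine transporter Slc18a2 (0.64). Ret, Th and Nr4a2 among them are also on the list of dopaminergic markers.

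By the same rule En1 was most like Nrgn, which encodes neurogranin (r = 0.69, adjusted p = 8.4e-05), then Foxa2, Uchl1, Slc10a4 and Chrna4, at 0.63 to 0.64. En2 was most like Gfra2, a coreceptor of Ret (r = 0.63, adjusted p = 0.014), then Celf4 (0.62), Chst1 (0.59), Pnrc1 (0.57) and Slc12a1 (0.56). Irx2 was most like Zxda (r = 0.71, adjusted p = 0.00012), then Ubqln2, Snhg4, Tob1 and Lhfpl6. Pax5 was most like Zfp326 (r = 0.74, adjusted p = 3.5e-06), then Rbm27, Tmem116, Pfdn2 and Ddx6. Pax7 was most like Tgif2, with r = 0.55 (adjusted p = 0.51), and none of its 5 nearest genes passed.

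The number of genes that passed in each fit set Pax5 and Irx2 apart. With Pax5 1648 genes rose and 3608 fell, 28% of all tested. With median-of-ratios scaling 2638 rose and 2723 fell, so the excess of falling genes depends on the scaling. Those that fell included Pecam1, Esam and Cldn5 of 6 endothelial markers, which fell by 0.14, 0.12 and 0.11, and the inhibitory neuron genes Gad1 (fell by 0.12) and Pnoc (fell by 0.18) of 11. The oligodendrocyte gene Cnp (fell by 0.13), the microglial gene Csf1r (by 0.17) and the astrocyte gene Aldh1l1 (by 0.09) fell too. Sox9 of the astrocyte list and Aif1 of the microglial list rose, by 0.14 and 0.12. With 28% of all genes called, these markers are not read as a result about any cell type. With median-of-ratios scaling Esam (adjusted p = 0.082) and Cldn5 (0.054) no longer passed. With identifier series as a covariate Pecam1, Esam and Cldn5 all lost the call (adjusted p = 0.16, 0.29 and 0.17 in limma). They also lost it with the 2 libraries most extreme in Pax5 left out (0.099, 0.14 and 0.13). Gad1 and Pnoc passed in both of these settings. The fit on Irx2 called 1658 genes (8.84%), but none with the 2 libraries most extreme in Irx2 left out. Its 662 rising and 996 falling genes became 1682 and 999 with median-of-ratios scaling, and the 15 rising and 45 falling genes of En2 became 772 and 605. With Otx2 156 genes passed, with Foxa2 70, with En2 60, with En1 47 and with Lmx1b 30 (0.832%, 0.373%, 0.32%, 0.251% and 0.16%). With Pax7 no gene passed in limma (0%), and 473 had an unadjusted p under 0.05. Without the library of highest dopaminergic score the counts were 68 for Otx2, 32 for Foxa2, 308 for En1 and 9 for Lmx1b.

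Pax5 also had r = 0.36 with the summed level of 6 choroid plexus markers (rho 0.33, adjusted permutation p = 0.047 and 0.11), which ran from 4.76 to 13.7 CPM. The correlation was 0.29 with the 2 most extreme libraries left out and ran from -0.17 to 0.66 within series. Otx2, which choroid plexus epithelium expresses, had r = -0.20 with it. The defining marker Ttr had a median of 0.07 CPM and was at 0 in 17 libraries.

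The same genes were read in the other libraries with Nif3l1, LOC120093067 and Zfp532 left out of every total. No test was made between these kinds of library, which differ in depth and in their dominant features. In the 32 libraries rich in Zfp532, Pax5 ran from 14.3 to 84.5 CPM with a median of 49.8, and in the 49 libraries it ran from 7.30 to 20.96 CPM with a median of 13.4. In the same order En2 had medians of 23.5 and 16.8 CPM and Irx2 of 6.32 and 8.94 CPM. En1 ran from 36.6 to 203.9 CPM in the former and from 51.6 to 123.3 CPM in the latter. The other 4 genes had medians of 0.70 and 0.97 CPM (Otx2), 3.61 and 3.85 CPM (Pax7), 2.07 and 1.77 CPM (Lmx1b) and 1.53 and 1.30 CPM (Foxa2). Among the 8 genes Pax5 had the largest gap between the medians of the 32 and the 49 libraries. Estimated counts of Pax5 were whole within 0.01 in 9.375% of the 32 libraries and in 55.1% of the 49. The part of such divided counts in the gap was not tested. Over those 32 libraries 5 of the 8 genes rose with the dopaminergic score (Otx2, Foxa2, Lmx1b, En1 and Irx2). In the same fit 7635 of 20087 genes rose and 380 fell, and the median slope of all genes was 0.19.

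**Figure D5:**
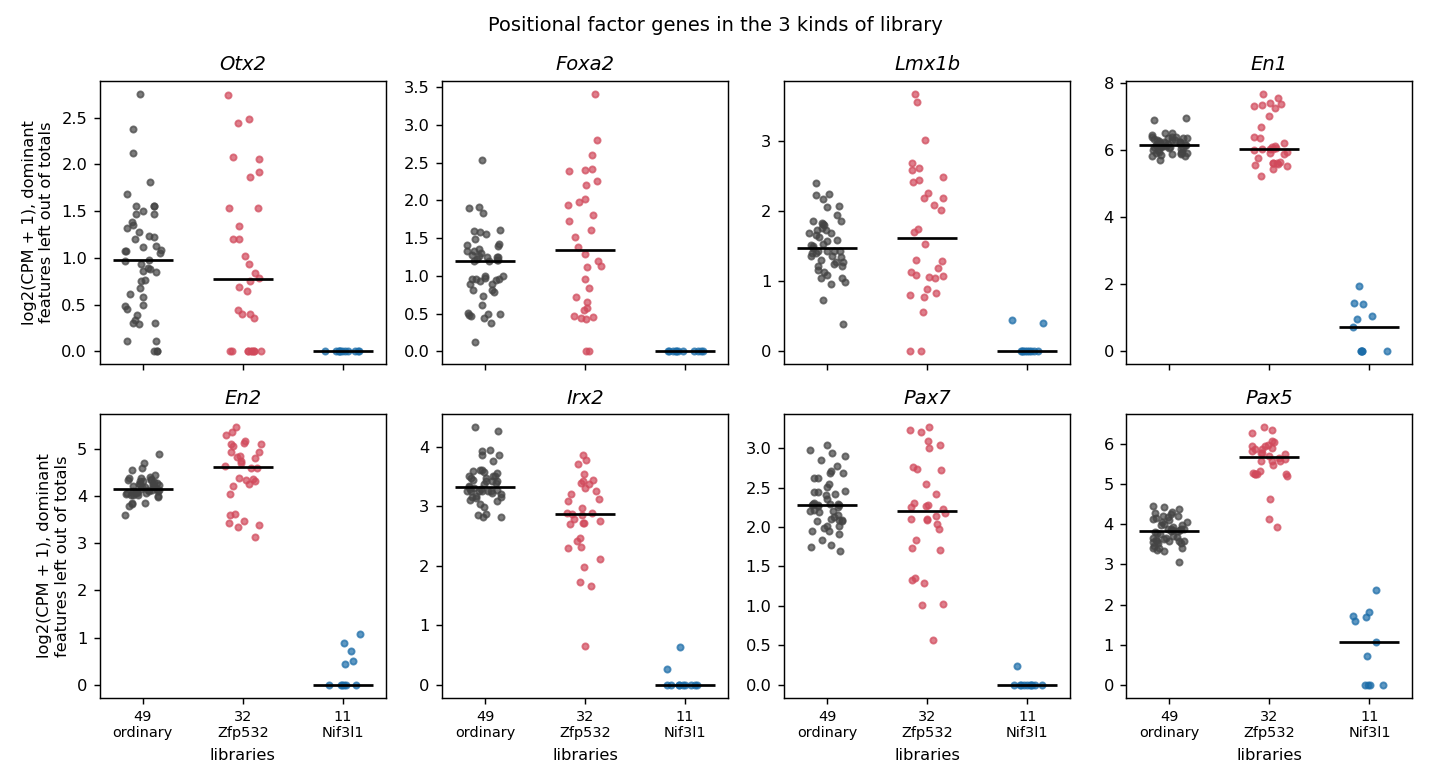
Level of each gene as log2(CPM + 1), with Nif3l1, LOC120093067 and Zfp532 left out of the totals (vertical axes), in the 49 libraries used, the 32 rich in Zfp532 and the 11 rich in Nif3l1 (horizontal axes), 1 point per library with the median as a bar. Pax5 has the largest gap between the medians of the 49 and the 32 libraries, and all 8 genes are at or near 0 in the 11.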

How the data were processed

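Polyadenylated RNA of the RMTg of outbred rats was sequenced in 93 samples of 1 group, and 92 have a column in the deposited table. The deposited values are log2 of an estimated count plus 1 for each gene, made by the authors with kallisto 0.48 per the submitters' processing notes. From the values, 49.98% of back-transformed entries above 0 and under 20 were whole within 0.01. The genome build and the trimming are not given in the sources used here.

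Values were back-transformed and scaled to CPM by each library's total, so depth sets the counting error and transcript length is not removed. Tests used log2(CPM + 1). The text covers the 49 libraries in which Nif3l1 was under 20% and LOC120093067 plus Zfp532 under 10% of the total. A gene was kept where log2(CPM + 1) reached 1 in 20% of these libraries or more (18749 genes, all 8 members among them). Of the listed genes, Ccdc153 has no row and was not analysed here, and 2 others are not reported here.

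Slopes on a score, or on 1 gene's level, were tested with limma 3.58.1 in R 4.3.3 (moderated, with trend), Benjamini-Hochberg adjusted over all genes, leaving a score's own genes out of its counts. A score was the mean standardised level of a list, scaled to an SD of 1. Correlations and differences of slopes used two-sided permutation tests (100000, Python 3.11.15, scipy 1.17.1). A gap of over 50000 between identifiers began a new series. Tests were checked on simulated data. Named genes were the 8, those of the fixed lists, and for each of the 8 the 5 genes of highest r with r above 0 in every series, passing over symbols without a name. The 8 genes and the lists were chosen with earlier results of these data known. The labels do not say that samples are separate animals, so p-values measure the spread between libraries, which may be technical. Another scaling, pseudocount, filter, covariates and sets of libraries were tried.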

Additional observations from a re-analysis of the deposited data

Results flagged for a closer look

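In the 11 libraries in which Nif3l1 took over 20% of the counts, which enter no comparison, 2 of the 8 genes were found above the 3 counts that a count of 0 allows. En1 was above 3 counts in 3 of the 11 libraries and Pax5 in 4 of the 11. The highest estimated count there was 14 for En1 and 20 for Pax5. Otx2 and Foxa2 had none in any of the 11, where 3 counts stand for between 0.356 and 1.75 CPM of the full total (median 0.608 CPM).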

How the results depend on the processing

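Of the 11 alternatives run, 10 used libraries of the same 49; leaving out the library of highest dopaminergic score was chosen after seeing the data. The number of the 8 genes that passed with the dopaminergic score stayed between 3 and 5 of 8, Otx2, Foxa2 and Lmx1b passed in all, and none differed between series in any. The number of gene pairs that differed in slope ran from 12 to 18. Pairs that varied together numbered 8 with median-of-ratios scaling, 1 without the 2 farthest libraries and 8 in the 32 libraries rich in Zfp532. With the oligodendrocyte score the count was 0 with median-of-ratios scaling, 0 with no filter, 0 without the library of highest dopaminergic score and 6 in the 32 libraries. In these 32 libraries 1 gene passed with the serotonergic and 5 with the RMTg inhibitory score. Among all genes there, 3510 of 20092 passed with the serotonergic and 10037 of 20086 with the RMTg inhibitory score. With the oligodendrocyte score 8749 of 20091 passed. The counts of the 8 genes in these 32 libraries are thus not read as results about them. The 10 slopes that reversed did so there: on the dopaminergic score Pax5 (0.19) and Irx5 (0.41), on the oligodendrocyte score En1 (0.32), on En2 Pnrc1 (-0.031), on Pax5 Tmem116 (-0.36), on Pax7 Pcdhb11 (-0.0013), and on Irx2 Zxda (-0.085), Snhg4 (-0.27), Irx5 (0.30) and Nkx6-2 (0.42). The median slope of all genes there was 0.18 to 0.25 for the 4 scores, and the cause was not tested. Counts of all genes called moved by over 1.5 times in 55 of 141 values: 212 (with Xist and Ddx3y as covariates) to 8015 for the dopaminergic score, 1270 to 8749 for the oligodendrocyte, 1 to 10037 for the RMTg inhibitory and 1 to 3510 for the serotonergic score, 0 to 408 between series, and 68 to 869 for Otx2, 22 to 11406 for En1, 7 to 6469 for En2, 3441 to 6260 for Pax5, 0 to 3067 for Pax7, 0 to 8471 for Irx2, 7 to 3948 for Lmx1b and 18 to 105 for Foxa2, with each upper end but those of Foxa2 and the series in the 32 libraries. No paired analysis was possible because all samples are of 1 group. Otx2, Foxa2 and Lmx1b have median counts of 18, 21 and 36, so their levels in single libraries are imprecise.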
